A study of Mus musculus with 12 samples.

Results

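The densest stretches of H3K4me1 in wild-type mouse embryonic fibroblasts were taken as a set of 500 clusters, of 27381 that the genome held. H3K4me1 is histone H3 with a single methyl group on lysine 4. Peaks of the 2 wild-type H3K4me1 libraries on chromosomes 1 to 19 were merged wherever they shared 1 bp, which gave 73446 regions, of which 40316 were held by both libraries. Regions within 12.5 kb of each other were stitched into clusters, and the 500 clusters with the most bases in such regions were kept. They held 2661 regions, which is 6.60% of the regions held by both libraries and 7.41% of their bases. Because wild-type H3K4me1 chose these clusters, wild-type H3K4me1 levels in them are a description, and so is any loss against the wild type.

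Mouse embryonic fibroblasts (MEF) are connective tissue cells grown out of embryos and kept in culture. They were profiled by Cut & Run, in which an antibody guides a nuclease to a chromatin protein and the released DNA fragments are sequenced. Cells of 2 genotypes were used, wild type (WT) and fbxw7 KO (knocked out for Fbxw7, here KO), and were cultured in serum-containing DMEM with no other treatment named. The 3 antibodies were against MLL4, H3K4me1 and H3K4me3, each with 2 libraries per genotype, which makes 6 groups and 12 libraries. The labels give no allele, no method of knockout, no embryo and no clone, and peak lists do not measure the loss of Fbxw7, so the genotypes stand as labelled. They also do not say whether libraries of a group are separate cultures, and the spread between them may be technical.

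Fbxw7 is the subunit of an SCF ubiquitin ligase that recognises proteins to be degraded. MLL4, the product of Kmt2d, is a methyltransferase that places H3K4me1 on enhancers, which are DNA elements that raise transcription of genes at a distance. H3K4me3 is the trimethylated form and is found mostly at the start sites of active genes. Enhancers that lie close together over long stretches are known in many cell types, where they often surround genes that define the cell. The comparison asks how the H3K4me1 of such stretches, and the H3K4me3 and MLL4 peaks within them, stood in the knockout.

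Each H3K4me1 library held between 11604131 fragments (WT replicate 2) and 13627038 (KO replicate 1) after the authors' duplicate filter. The H3K4me3 libraries held 5519477 to 6185767, except WT replicate 1 with 11319701, and the MLL4 libraries 4435103 to 5838305. The values below are covered bases, the number of bases under a peak of a library. A base without a peak had no call in that library, which does not show that the mark was missing.

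The clusters held between 4495 and 14818 bases of shared regions, with a median of 5314. Their span from end to end was 10780 to 92204 bp, with a median of 33324.5 bp, so the regions filled a median of 16.3% of the span. A cluster had 2 to 13 regions and a median of 5. A stitched WT cluster had a median of 1 region and 1141 covered bases over all 27381, of which 19133 were a lone region. The curve of covered bases against rank has no step at the limit of 500. The last clusters kept were those next to Slc38a2 (4498 bases), over Slc35f5 (4495) and nearest to Aldoart1 (4495), and the next below were over Rapgef1 (4493), over Synpo2 (4491) and nearest to Fhl2 (4487).

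**Figure D1:**
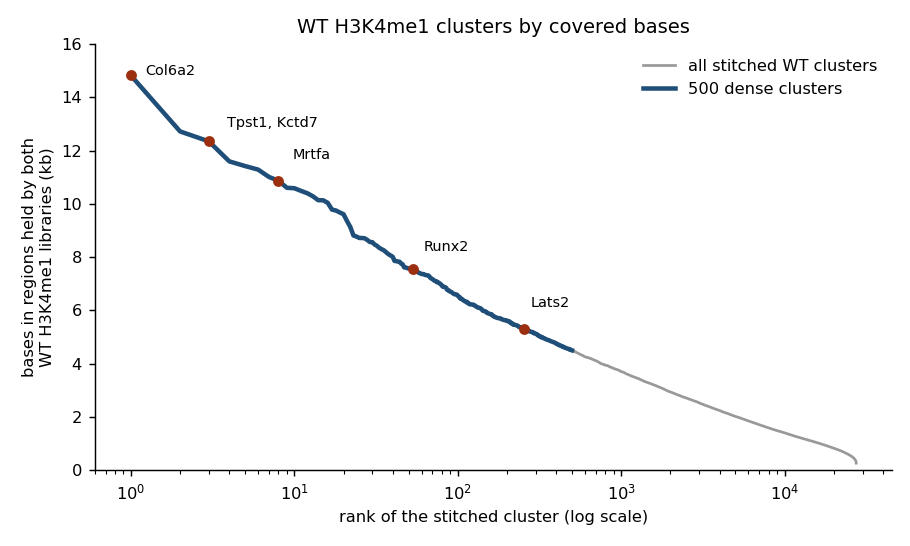
Bases in regions held by both WT H3K4me1 libraries (kb, vertical axis) for each stitched cluster against its rank (log scale); the blue line is the 500 dense clusters and the grey line the other clusters. The points mark clusters over Col6a2, over Tpst1 and Kctd7, and over Mrtfa, Runx2 and Lats2; the curve falls from 14818 bases at rank 1 to 4495 at rank 500 with no break there.

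Sequences of some start-site windows within the clusters are shown, which are only a small part of what the H3K4me1 lay on. No genome sequence was used here, so only windows of 300 bases from RefSeq (GRCm38.p6, the coordinates of mm10), 250 before to 50 after an annotated start, can be printed. Of 29396 such windows, 232 lay in the clusters, and 33 of these had at least 240 bases in regions held by both WT libraries. The 3 shown here had all 300 bases under H3K4me1 peaks of both WT libraries, and were taken by cluster rank among those with an AP-1 motif, after their values had been seen. AP-1 is the family of Fos and Jun transcription factors. All 3 belong to RefSeq genes that are not among the protein-coding genes counted here. The capitals mark the AP-1 letters TGANTCA.

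Gm8883, chr1:71887862-71888161, plus strand: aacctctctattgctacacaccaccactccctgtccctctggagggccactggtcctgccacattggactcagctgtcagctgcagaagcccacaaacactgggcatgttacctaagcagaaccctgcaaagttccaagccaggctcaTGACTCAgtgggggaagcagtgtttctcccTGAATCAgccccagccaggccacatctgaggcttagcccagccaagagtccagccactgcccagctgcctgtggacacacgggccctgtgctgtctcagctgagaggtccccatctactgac
Mannr, chr3:29890767-29891066, plus strand: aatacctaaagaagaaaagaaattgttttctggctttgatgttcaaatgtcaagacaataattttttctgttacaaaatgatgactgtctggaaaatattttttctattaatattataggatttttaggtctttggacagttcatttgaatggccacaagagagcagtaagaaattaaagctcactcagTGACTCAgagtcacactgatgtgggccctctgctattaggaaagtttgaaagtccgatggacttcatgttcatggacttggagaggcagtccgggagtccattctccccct
5033421B08Rik, chr12:8510913-8511212, plus strand: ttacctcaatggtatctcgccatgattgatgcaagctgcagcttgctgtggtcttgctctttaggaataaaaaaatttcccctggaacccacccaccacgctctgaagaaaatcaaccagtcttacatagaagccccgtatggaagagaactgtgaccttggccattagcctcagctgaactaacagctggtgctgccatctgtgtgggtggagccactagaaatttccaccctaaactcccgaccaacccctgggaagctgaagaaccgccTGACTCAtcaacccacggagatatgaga

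The Gm8883 window has 2 AP-1 matches and lies in the cluster of rank 17, a cluster 191299 bp from Fn1, the fibronectin gene. In the KO, H3K4me1 peaks covered 202 bases of this window in replicate 1 and all 300 in replicate 2. The Mannr window (rank 198, in a cluster 46649 bp from Mecom) was covered over 46 and 300 bases in the KO. For the 5033421B08Rik window (rank 263, in the cluster over Rhob) it was 124 and 238. All 3 windows were wholly covered in both WT libraries by the pick. A KO library could thus only equal or fall below them, and these values are a description.

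Motifs were searched on both strands: AP-1 (TGANTCA), TEAD (GGAATG, or CATTCC on the other strand), RUNX (TGTGGT, or ACCACA) and E-box (CANNTG). The AP-1 and E-box letters read the same class on both strands. AP-1 letters were in 24.2% of the 33 H3K4me1-covered windows of the clusters. That share was 23.3% of all 527 windows covered to the same extent, 7.76% of the 232 windows in the clusters and 7.95% of all 29396 windows. TEAD letters were in 18.2% of the 33 windows against 24.5% of the 527, and in 14.6% of all windows. RUNX letters were in 24.2% against 23.7%, and 16.8% of all, and E-box letters in 93.9% against 78.2%, and 72.3% of all. A match describes the letters only and marks no binding.

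The windows of Mmp14 and Palld are shown because they lay in clusters but under WT H3K4me3, with little or no H3K4me1 of their own. Mmp14 encodes a membrane-bound matrix metalloproteinase and Palld encodes palladin, a protein of actin bundles. The capitals again mark AP-1 letters, which the Mmp14 window lacks.

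Mmp14, chr14:54431348-54431647, plus strand: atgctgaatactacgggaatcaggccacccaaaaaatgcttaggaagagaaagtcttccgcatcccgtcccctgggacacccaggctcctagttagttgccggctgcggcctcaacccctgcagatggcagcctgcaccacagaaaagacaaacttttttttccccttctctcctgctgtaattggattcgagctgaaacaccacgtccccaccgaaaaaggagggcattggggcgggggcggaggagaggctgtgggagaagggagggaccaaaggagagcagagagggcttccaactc
Palld, chr8:61591090-61591389, minus strand: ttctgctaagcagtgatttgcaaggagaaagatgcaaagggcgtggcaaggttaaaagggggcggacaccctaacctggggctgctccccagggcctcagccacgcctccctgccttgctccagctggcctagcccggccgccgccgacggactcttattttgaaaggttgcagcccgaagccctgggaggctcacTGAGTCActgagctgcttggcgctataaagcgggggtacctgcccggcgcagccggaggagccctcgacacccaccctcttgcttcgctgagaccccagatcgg

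No H3K4me1 peak of any library touched the Mmp14 window, whereas H3K4me3 peaks covered 253 and 300 of its bases in the WT and none in the KO. The Palld window was wholly under H3K4me3 in both WT libraries, and over 121 and 0 bases in KO replicates 1 and 2. Its H3K4me1 cover was 7 and 0 bases in the WT and 72 and 54 bases in the KO. It holds 17 CpG dinucleotides and the Mmp14 window 10, where a window had a median of 7 over the genome and 4 in the clusters. Both windows were picked for WT H3K4me3 and little H3K4me1, so their values of both marks are a description.

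Small RNAs encoded in the clusters were listed, and their number was not set against the clusters' share of the genome. RefSeq places 8 miRNA hairpins, of 919 on chromosomes 1 to 19, in 7 of the clusters, with 11 mature miRNAs listed at these positions. The cluster of rank 25 (chr9:41480376-41542704) held both Mir100 and Mirlet7a-2. Only the hairpin of Mir3966, in the cluster of rank 110, lay within a region held by both WT libraries. The mature sequences listed at the hairpins of Mir100, Mirlet7a-2 and Mir3966 follow, with the seed (bases 2 to 8, which pair with targets) in capitals. No seed is shared among these 4. Mature forms that are not listed at a hairpin's position, such as any other form from Mirlet7a-2, were not considered.

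mmu-miR-100-5p: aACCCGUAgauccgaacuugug
mmu-miR-100-3p: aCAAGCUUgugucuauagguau
mmu-let-7a-2-3p: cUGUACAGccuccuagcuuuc
mmu-miR-3966: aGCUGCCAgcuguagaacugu

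The rank 25 cluster, which lies 318684 bp from the nearest coding gene (Ubash3b), had 7412 and 7438 H3K4me1 bases in the WT and 5749 and 4789 in the KO. Both KO values were below both WT values. Its region closest to the Mir100 hairpin was 1008 bp away, and to Mirlet7a-2 3085 bp. The rank 110 cluster had 5478 and 4623 bases in the WT and 5296 and 4341 in the KO, so its genotypes overlapped.

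The clusters were placed against protein-coding genes. Of the 500, 311 overlapped a protein-coding gene, 203 of them wholly inside 1 gene, and 189 lay between genes at a median of 67.5 kb from the nearest. The largest gap was 1423 kb. Exons could not be told from introns, as the annotation used lists only where genes start and end. The clusters touched 330 of 20665 protein-coding genes, which is 1.6% of them. Those genes had a median length of 114 kb against 17.5 kb for all genes. Only 76 clusters contained a coding start site.

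Several genes held more than 1 cluster. Rnf150, a gene for a RING-finger protein, held 3 (ranks 96, 236 and 238), and 20 genes held 2. The summed bases in the Rnf150 clusters were 15711 and 11999 in the WT and 11421 and 10049 in the KO. Palld followed with ranks 4 and 12, at 19068 and 16804 against 15563 and 12648 bases. For both genes the KO sums were lower than the WT sums in both libraries.

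The cluster with the most bases (chr10:76620873-76701468) lies in the collagen VI locus, where it holds the start of Col6a2 and ends 7.32 kb from Col6a1. Collagen VI forms the beaded filaments of connective tissue. It had 14818 bases in 11 shared regions, with 12684 and 12598 H3K4me1 bases in the WT and 12604 and 12166 in the KO. The genotypes overlapped there, at a KO to WT ratio of means of 0.980. The second cluster (chr10:37559684-37651887) lies in a gene-poor stretch 420758 bp from Marcks, with 10758 and 9118 bases in the WT and 9740 and 9936 in the KO, which also overlap.

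The others of the 12 largest clusters were mostly lower in the KO. The cluster over Tpst1 and Kctd7 (chr5:130083874-130142760) had 10546 and 8134 bases in the WT and 6430 and 6441 in the KO. Tpst1 encodes a tyrosine sulphotransferase of the Golgi. The cluster of rank 4, within Palld (chr8:61754688-61813836), had 9408 and 9896 bases against 8628 and 7855. The cluster within Tns1 (chr1:73998248-74070684), which encodes the focal adhesion protein tensin 1, had 8592 and 9667 against 6309 and 6693. In these 3 clusters no KO value reached a WT value.

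The cluster of rank 6 lies 135813 bp from Tgfbr2, a receptor for TGF-beta, at chr9:116311176-116384987. It had 10220 and 10105 bases in the WT and 6893 and 5066 in the KO, the lowest ratio of the 12, at 0.588. The cluster over Mrtfa (chr15:81055163-81122396), a coactivator that responds to free actin, had 10477 and 8868 bases against 6851 and 6309. Epb41l2, which encodes a membrane skeleton protein, had 9874 and 7953 bases against 7000 and 7330. The KO values were below the WT values in all 3.

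Of the remaining 4, the clusters nearest to Rasgrp1 (8180 and 7795 against 5697 and 6452) and to Dnajb6 (9509 and 8374 against 8308 and 8051) did not overlap between genotypes. The clusters over Amotl1 (7426 and 9479 against 7661 and 6441), which encodes a Yap-binding angiomotin, and of rank 12 over Palld (9660 and 6908 against 6935 and 4793) did overlap. KO values were thus below WT values in 8 of the 12 largest clusters, where this held for 63% of the 500 and 51.4% of all stitched WT clusters. The ratio of means in the 12 ran from 0.588 to 0.990.

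Summed over the 500 clusters, H3K4me1 peaks covered 2.48 and 2.34 Mb in the WT and 2.01 and 1.79 Mb in the KO. The means were 2.41 ± 0.0992 Mb and 1.90 ± 0.156 Mb (SD, n = 2 each), a ratio of 0.791, which is a log2 difference of -0.34. The clusters took up 6.11 and 6.45% of all H3K4me1 bases of the WT libraries and 5.29 and 5.55% of those of the KO libraries. Whole lists on chromosomes 1 to 19 covered 40.6 and 36.2 Mb in the WT and 38.1 and 32.3 Mb in the KO, a ratio of 0.916. These lists also count peaks outside the regions held by both WT libraries, so that ratio is of an unlike set.

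By cluster, both KO values were below both WT values in 315 of 500 (63%), where the same held for 51.4% of all 27381 stitched WT clusters. Both were above in 19 (3.8%), where 3.61% of all did so. The remaining 166 overlapped. Since the choice rested on WT peaks, these counts describe the set and say nothing of the knockout by themselves. The KO mean was below the WT mean in 445 clusters, and the median ratio was 0.789, with a range of 0.225 to 1.39. Over all 27381 stitched WT clusters the KO mean was below in 22859, and the median ratio was lower, at 0.703. In the 500, the KO mean was at most 50% of the WT mean in 27 and at most 67% in 125, and at least 1.5 times it in 0. No cluster was empty in a KO library, and the lowest value was 699 bases.

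The libraries of a genotype also differed from each other. Per cluster, the median absolute log2 difference was 0.17 between the WT libraries, 0.25 between the KO libraries and 0.35 between the genotype means. KO replicate 1 was below both WT libraries in 339 clusters and KO replicate 2 in 412. Among the 50 largest clusters 74% were lower in the KO with no overlap, against 63% of ranks 401 to 500 and 59.6% of ranks 501 to 1000. The summed KO to WT ratios of these classes were close to each other, at 0.776, 0.768 and 0.769.

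The same rule was then applied with the libraries exchanged. When the 500 clusters were taken from the KO libraries, WT libraries had 1.99 and 1.83 Mb and KO libraries 2.26 and 2.08 Mb, a ratio of 1.14. Both KO values were then above both WT values in 200 clusters (40%), against 40.3% of all 26335 stitched KO clusters, and below in 40 (8%), against 7.15%. Each choice thus favoured the genotype that made it. Of the WT-chosen clusters, 206 (41.2%) shared a base with a KO-chosen one, and 207 KO-chosen clusters (41.4%) shared one with a WT-chosen cluster.

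A choice that treats the genotypes alike used only regions held by all 4 H3K4me1 libraries, stitched and ranked as before. Regions that lacked a peak in at least 1 library could not form these clusters. This favours a ratio near 1, so the test below cannot show that H3K4me1 was alike in the genotypes. These 500 evenly chosen clusters had 2.03 and 1.88 Mb in the WT (1.95 ± 0.106) and 1.95 and 1.79 Mb in the KO (1.87 ± 0.115; SD, n = 2 each). The ratio was 0.958 (log2 -0.06), and an exact two-sided permutation test gave p = 0.667, where the smallest p that 4 libraries allow is 0.333. The difference was smaller than the spread between libraries of 1 genotype. As a share of each library they held 5.09 ± 0.129% in the WT and 5.34 ± 0.292% in the KO (exact p = 0.667). Both KO values were below both WT values in 145 clusters (29%), against 25.5% of all 20643, and above in 70 (14%), against 16.3%. Of the WT-chosen clusters, 281 (56.2%) shared a base with an evenly chosen one.

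**Figure D2:**
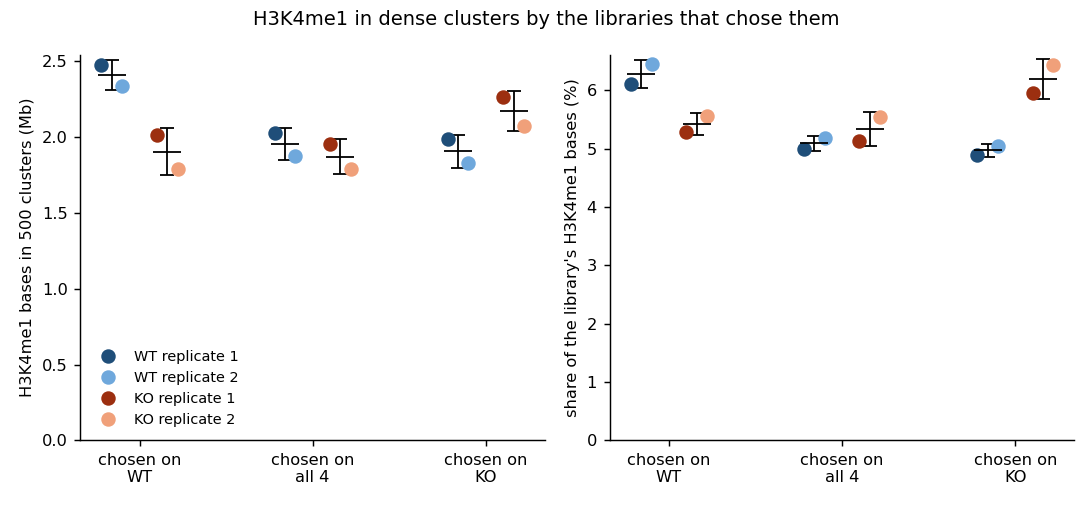
H3K4me1 bases in 500 clusters (Mb, left) and the same as a percentage of all H3K4me1 bases of the library (right), for clusters chosen on the WT libraries, on all 4 and on the KO libraries. Points are libraries and bars the mean and SD of 2; KO lies below WT at 0.791 of its mean for the WT choice, at 0.958 for the even choice and above it at 1.14 for the KO choice.

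Most regions in the clusters were also called in the KO, as were regions over the genome. Bases were counted only within the bounds of the merged WT peaks, which leaves out KO bases beyond them. The count thus favours the WT, and the fewer KO bases per region are a description. Of the 2661 regions, 1933 (72.6%) had a peak in both KO libraries, 440 (16.5%) in 1 and 288 (10.8%) in neither. Over all 40316 regions 65.5% had a peak in both and 15.2% in neither. Where both KO libraries had a peak, the median bases per region were 954 and 897 in the WT and 786 and 708 in the KO, and the summed ratio was 0.821. Over all regions with a peak in both KO libraries the medians were 853 and 805 against 704 and 647, and the ratio was 0.827.

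The KO libraries also had peaks between the WT regions. Within the WT regions the libraries covered 2.40 and 2.27 Mb (WT) and 1.73 and 1.56 Mb (KO), a ratio of 0.705. In the rest of the spans they covered 0.0825 and 0.0674 Mb in the WT and 0.286 and 0.233 Mb in the KO, 3.46 times as much. A region held by both WT libraries cannot lie there, so the WT value is low by the choice. Peaks in the spans numbered 2974 in each WT library and 2653 and 2452 in the KO, with 833 and 786 bases per peak against 759 and 732.

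The authors' peak values show the clusters' peaks as tall against the rest of each list. Their median pileup, the number of fragments over the summit, was 27 and 25 in the WT and 25 and 23 in the KO, where peaks outside had 18, 18, 18 and 17. Their median fold enrichment over the local background was lower than outside, at 4.12 and 4.07 against 4.43 and 4.45 in the WT. In the KO it was 4.17 and 4.19 against 4.34 and 4.45. The order within and outside the clusters was the same in all 4 libraries for both values.

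The clusters with the lowest KO to WT ratio, among those without overlap, had no KO peak at 1 to 5 of their regions. The cluster within Foxp1 (chr6:99436268-99471442), a forkhead transcription factor gene, had 4581 and 3337 bases in the WT and 1030 and 751 in the KO, a ratio of 0.225. Of its 6 regions 5 had no peak in either KO library. The cluster within Sgip1 (chr4:102779883-102826658), an endocytic adaptor gene, had 4968 and 5652 against 1861 and 1249, a ratio of 0.293. Of its 7 regions 3 had no KO peak.

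Auts2 (3684 and 3582 bases in the WT against 1353 and 1158 in the KO), Lrig1 (3931 and 4474 against 1813 and 1207) and Map2k6 (3637 and 3366 against 1598 and 1071) followed. Lrig1 encodes a membrane protein that restrains growth factor receptors, and Map2k6 a kinase upstream of p38. The cluster over Igf2bp3 and Malsu1 had 5252 and 3796 bases against 2383 and 981. The cluster 42590 bp from Cdca2 had 3683 and 2986 against 1637 and 699, and that 25888 bp from Jak1, a cytokine receptor kinase, 4709 and 3827 against 1777 and 1239. A further cluster within Auts2 (rank 201) had 4891 and 4631 bases in the WT and 5772 and 4184 in the KO, with overlap and a ratio of 1.05. The 8 clusters with the lowest ratios lay on chromosomes 4, 5, 6, 11 and 14.

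The clusters with the highest ratio, again without overlap, lay mostly on chromosome 10. The cluster within Sash1 (chr10:8917544-8980897), a scaffold protein gene, had 5808 and 5706 bases in the WT and 8237 and 7744 in the KO, a ratio of 1.39. The cluster within Eya4 had 4851 and 3202 against 5658 and 5405, and that over Lims1, which encodes the adhesion protein PINCH1, 3907 and 4017 against 4357 and 6241. The clusters 12593 bp from Hdac2 (3910 and 3647 against 4586 and 4690) and 335938 bp from Marcks (3871 and 4404 against 5027 and 5128) are on the same chromosome. Off it were those over Psd3 (3447 and 3645 against 4481 and 4736), Il16 (3965 and 4444 against 4825 and 5742) and Stx8 (3538 and 3208 against 4639 and 3685). All regions of the Eya4, Lims1 and Psd3 clusters but 1 (Eya4) were held by both KO libraries.

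**Figure D3:**
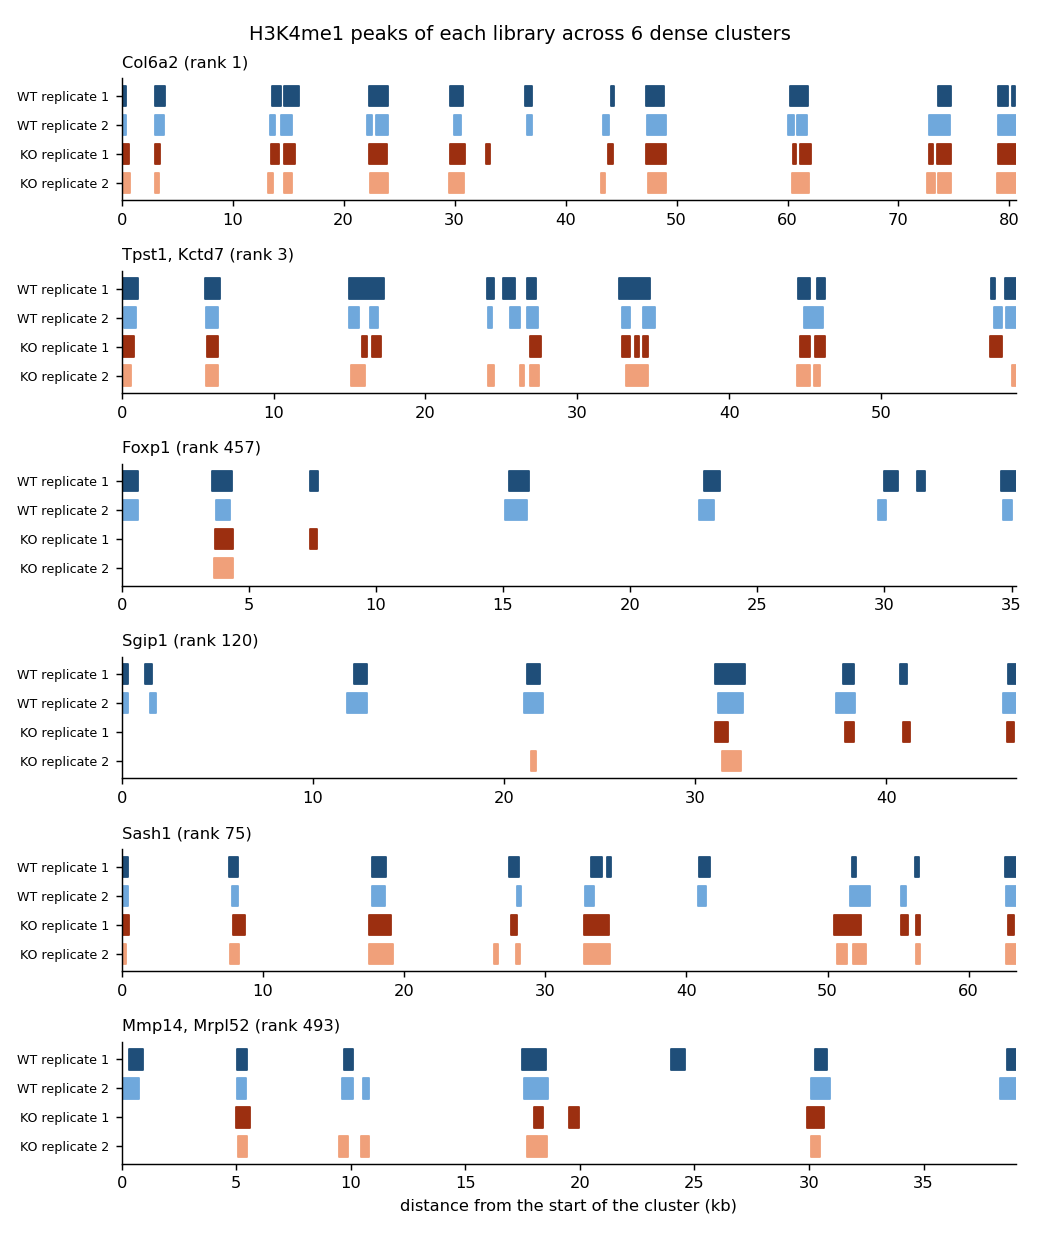
H3K4me1 peaks of each library (rows; WT in blue, KO in red and orange) across 6 dense clusters, as boxes against the distance from the start of the cluster (kb). The Col6a2 cluster has peaks at nearly the same places in all 4 libraries, the Foxp1 cluster keeps 2 peaks in KO replicate 1 and 1 in KO replicate 2, and the Sash1 cluster has wider peaks in the KO.

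Whole chromosomes differed in their H3K4me1 cover between the genotypes, and the clusters are set beside them here. On chromosome 10 the KO libraries covered 1.23 times the WT bases in all, and its 35 clusters had a summed ratio of 0.984, the highest of any chromosome. Of these 35 clusters 12 (34.3%) were lower and 8 (22.9%) higher in the KO with no overlap, where 36.1 and 8.98% of all stitched clusters of that chromosome were. On the other chromosomes 303 of 465 clusters (65.2%) were lower and 11 (2.37%) higher, where 52.4 and 3.26% of all stitched clusters were. Chromosome 4 had the lowest whole-chromosome ratio, 0.792, and its 18 clusters the lowest summed ratio, 0.589, with 15 of them (83.3%) lower, against 59% of all stitched clusters there, and 0 higher, against 2.57%. On chromosome 14 there were 31 clusters with a ratio of 0.674, against 0.825 for the chromosome, and 27 (87.1%) were lower, against 57.2% of all stitched clusters there, and 1 was higher, against 2.37%.

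On chromosome 16, which held only 6 clusters, the ratio was 0.812 against 1.10 for the chromosome, and on chromosome 19, with 22, it was 0.726 against 0.801. The clusters' ratio was below that of their chromosome on each of the 19, by a factor of 0.737 to 0.949. The clusters were built on regions held by both WT libraries, while the chromosome ratio also counts peaks outside such regions. The choice thus favours a lower ratio in the clusters, and this order is a description. Stitched WT clusters of ranks 10001 to 27381 had a summed ratio of 0.632, against 0.916 for whole lists. The part of the chromosome-wide ratios in the values of single clusters was not tested. Chromosome 8 had the most clusters, 40, which is 8% of them against 5.44% of all stitched clusters.

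**Figure D4:**
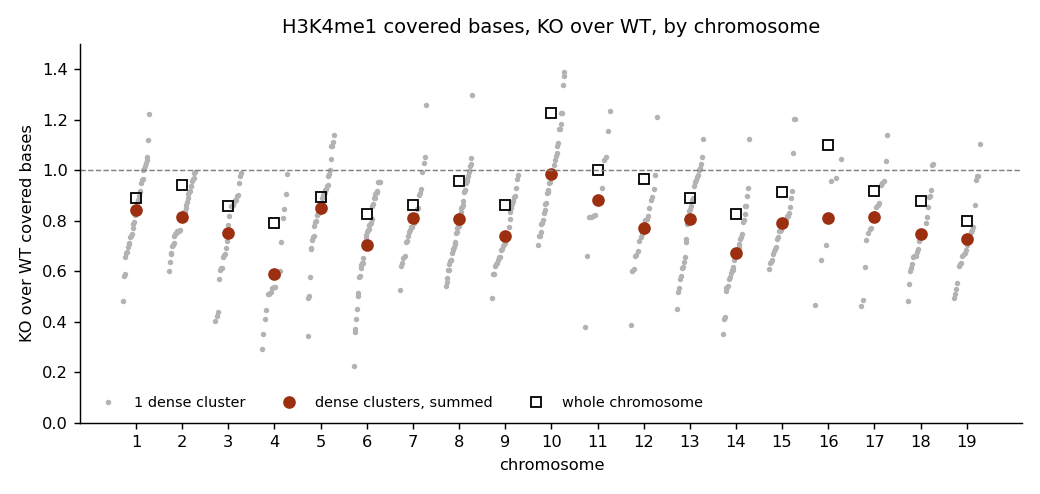
KO over WT H3K4me1 bases (ratio of means, vertical axis) by chromosome: grey points are single dense clusters, red points their sum and open squares the whole chromosome. Red points lie below the squares on every chromosome, an order that the choice on WT libraries favours. Chromosome 10 stands highest at 1.23 for the whole chromosome and 0.984 for its clusters.

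Some genes of the fibroblast matrix were in or near a cluster. Of the 28 genes of this list 6 (21.4%) overlapped a cluster, against 1.6% of all genes, and 13 (46.4%) lay within 50 kb of one, against 3.46%. Besides Col6a2 and Mmp14 these were Lum, Thy1, S100a4 and Timp3. Lum (lumican, a collagen-binding proteoglycan) had 5028 and 4068 bases in the WT and 5400 and 4304 in the KO, which overlap, and this cluster also lies 18.8 kb from Dcn (decorin). Timp3, an inhibitor of metalloproteinases, had 6827 and 6111 against 5170 and 4996. Thy1, a fibroblast surface protein, had 3974 and 3760 against 3157 and 1660, and S100a4 4221 and 5444 against 3077 and 2432. Both KO values were below both WT values in the last 3, where this held for 63% of the 500 clusters and 51.4% of all stitched clusters.

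Other collagen and matrix genes had their cluster outside the gene. The nearest cluster lay 7.59 kb from Fbn1 (fibrillin 1; 3878 and 4245 bases in the WT, 2939 and 2832 in the KO) and 10.4 kb from Postn (periostin; 4229 and 4080 against 3167 and 4086). It was 27.2 kb from Col5a1 (7340 and 8253 against 7268 and 6021), 31.5 kb from Col6a3 (5644 and 5039 against 4720 and 3694) and 48.7 kb from Col1a2 (5535 and 4673 against 4081 and 3938). Of these 5 only the Postn cluster overlapped between genotypes. Both KO values were below both WT values in the others, as in 63% of the 500 clusters and 51.4% of all stitched clusters.

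In the Yap and Tead pathway, by which cells sense their shape and crowding, 3 of 16 genes overlapped a cluster and 6 lay within 50 kb. The cluster in Wwtr1, which encodes the coactivator Taz, had 5153 and 6219 bases in the WT and 3491 and 4380 in the KO. That in Lats2, a kinase that inhibits Yap and Taz, had 5139 and 4142 against 2546 and 3080. That in Vgll4, a Tead cofactor, had 4671 and 4425 against 4766 and 3906 and overlapped. Ccn1, a secreted target of the pathway, lay 12.9 kb from a cluster with 4643 and 4652 bases against 4115 and 3848.

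Of the actin and adhesion genes 5 of 32 overlapped a cluster, among them Palld, Tns1, Itga5 and Itgb5. The cluster of the fibronectin receptor subunit Itga5 had 4780 and 5139 bases in the WT and 4002 and 3281 in the KO, and that of Itgb5 3929 and 4161 against 1800 and 1977. The cluster 14.5 kb from Vcl (vinculin) had 4751 and 4858 against 2551 and 2472. In these 3 the KO values were below the WT values, as they were in 5 of the 6 clusters over genes of the list, counting both of Palld, against 63% of the 500 clusters and 51.4% of all stitched clusters.

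Among receptors 3 of 15 genes overlapped a cluster. Egfr had 4470 and 4184 bases in the WT and 4659 and 4360 in the KO, which overlap. Igf1r had 4119 and 4242 against 3204 and 3262, and Ghr, the growth hormone receptor, 5618 and 6683 against 4484 and 4840, neither with overlap. In the TGF-beta and BMP list 1 of 24 genes did so, Tgfbr3, with 4807 and 4987 against 4581 and 3884.

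Of 30 mesenchymal transcription factor genes 2 overlapped a cluster. Runx2, the regulator of bone cell fate, lay across the cluster chr17:44682533-44739007 with 5947 and 6501 bases in the WT and 4598 and 4990 in the KO. Tcf4 had 3520 and 4333 against 4113 and 3905, with overlap. None of the 11 AP-1 genes overlapped a cluster or lay within 50 kb of one, and they are short, with a median of 8.24 kb.

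Genes tied to Fbxw7 were also counted. None of 24 genes for known Fbxw7 substrates overlapped one, and 1, Srebf1, a regulator of lipid synthesis, lay 48.7 kb from the cluster of rank 26 (7529 and 7628 bases in the WT, 6649 and 5718 in the KO). In the Notch list 1 of 19 genes did, Maml2, a Notch coactivator, with clusters of 5131 and 4321 against 3529 and 2552 bases and of 4530 and 4135 against 2535 and 2901. Of 16 genes of the H3K4 methylation machinery 1 did, Ash2l, a shared subunit of the methyltransferase complexes, with 4556 and 2869 against 2743 and 1739 bases. None of 16 housekeeping genes did. Rplp0 lay 15.5 kb from a cluster that was higher in the KO, at 5020 and 4761 against 4614 and 4305 bases.

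Marker genes of other cell types were counted in the same way. None of 12 pluripotency, 12 haematopoietic, 12 endothelial, 12 epithelial, 11 neural and 12 myogenic genes overlapped a cluster or lay within 50 kb of one. Over all genes the shares were 1.6 and 3.46%, which makes 0 in lists this short close to the background, and nothing is read from it. Median gene length differed between the lists counted here, from 4.74 kb (housekeeping) to 105 kb (mesenchymal transcription factors), with 37.0 kb in the matrix list and 53.7 kb in the endothelial list. The part of gene length in these counts was not tested.

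H3K4me3, which the rule did not use, covered 0.243 and 0.162 Mb of the clusters in the WT and 0.0424 and 0.0502 Mb in the KO. The means were 0.203 ± 0.0568 Mb and 0.0463 ± 0.00553 Mb (SD, n = 2 each), a log2 difference of -2.13. Both KO values were below both WT values, and the exact permutation test (two-sided) gave 0.333, the smallest p it can give. Without the more deeply sequenced WT replicate 1 the log2 difference was -1.81.

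KO H3K4me3 was also lower over the genome. The lists covered 21.3 and 17.1 Mb in the WT and 6.15 and 7.14 Mb in the KO, a log2 difference of -1.53. The clusters took up 1.14 and 0.949% of the H3K4me3 bases of the WT libraries and 0.689 and 0.703% of those of the KO libraries, a log2 difference of -0.58 (exact permutation p = 0.333, the smallest possible). The median pileup of H3K4me3 peaks, which is not scaled to depth, is given within each list. It was 21 and 28 in the clusters against 74 and 40 outside them in the WT libraries. In the KO libraries it was 16 and 19 in the clusters against 16 and 17 outside. With each H3K4me3 list reduced to its best peaks by q, as many as the shortest list has, the log2 difference within the clusters was -1.49 (exact permutation p = 0.333). The part of the lower KO cover over the genome in the difference was not tested beyond these values.

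By cluster, 182 and 128 had a WT H3K4me3 peak (replicates 1 and 2) and 59 and 69 a KO one, and 311 had none in any library. Of 121 clusters with a peak in both WT libraries, 62 contained no coding start site. In 48 clusters a peak was present in both WT libraries and absent from both KO libraries, which is 9.6% of the 500, where 3.36% of all stitched clusters did so. Among clusters with a peak in both WT libraries, the KO libraries both lacked one in 39.7% of the 121 and in 49.4% of 1866 such stitched clusters overall. The reverse held in 0 of the 500 and in 0 of all stitched clusters. The cluster with the most H3K4me3 was that over Mmp14 and Mrpl52 (chr14:54424841-54463879), with 5252 and 4540 bases in the WT and 1427 and 0 in the KO. Its H3K4me1 was 4072 and 4497 bases against 2170 and 2426.

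Sh3pxd2a, which encodes a scaffold of invasive adhesions, had 4080 and 3666 H3K4me3 bases in the WT and 453 and 231 in the KO. The homeobox gene Cux1 had 3909 and 3299 against 266 and 279, and the cluster over M1ap, Loxl3 and Dok1 3427 and 3454 against 877 and 971. KO values were below WT values in these 3 clusters, as in that over Mmp14. These clusters were picked for the most WT H3K4me3, which favours this order, so the values are a description.

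**Figure D5:**
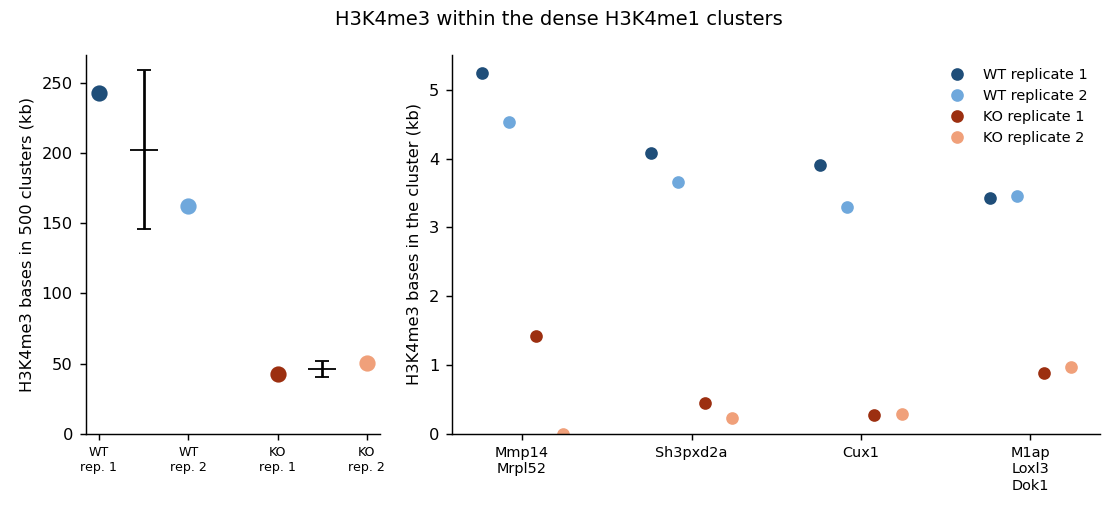
H3K4me3 bases (kb) within the 500 dense clusters per library, with the mean and SD of 2 libraries as bars (left), and in 4 of the clusters with the most WT H3K4me3 (right). Both WT libraries lie above both KO libraries in the sum and in each of the 4 clusters shown. The 4 were picked for high WT H3K4me3, which favours this order in them.

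The overlap of H3K4me3 peaks with H3K4me1 peaks was also counted. The clusters were chosen for WT H3K4me1, which favours overlap in the WT within them, so the shares there are a description. Of 256 and 176 H3K4me3 peaks in the clusters, 62.1 and 39.2% shared a base with an H3K4me1 peak of the library with the same genotype and number in the WT. In the KO it was 4.23 and 4.82% of 71 and 83 peaks. Outside the clusters the shares were 21.1 and 13.4% in the WT and 5.89 and 4.89% in the KO. The H3K4me3 peaks in the clusters were short, with medians of 0.681 and 0.725 kb in the WT against 1.23 and 1.06 kb outside, and of 0.508 and 0.503 kb in the KO against 0.543 and 0.585 kb outside.

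Start sites within the clusters carried H3K4me1 more often than start sites did over the genome. Of 107 coding start sites (83 genes) in the clusters, an H3K4me1 peak lay within 1 kb of 38.3 and 40.2% in the WT and 33.6 and 30.8% in the KO. Of all 20085 start sites 2340 and 2018 had such a peak in the WT and 2486 and 1954 in the KO, between 9.73 and 12.4%. The clusters were chosen by WT H3K4me1, so these shares are a description. H3K4me3 lay within 1 kb of 65.4 and 62.6% of the 107 in the WT and 46.7 and 47.7% in the KO, against 57.1 and 54.9%, and 41.3 and 43.7%, of all start sites. It was present in both WT and neither KO library at 8 of the 107 sites, where this held for 7.78% of all start sites, and in the reverse at 0.

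No MLL4 peak lay in a dense cluster. The lists held 54 and 61 MLL4 peaks in the WT and 43 and 36 in the KO on these chromosomes, and 0 of them overlapped a cluster in any library. A count of 0 allows a share of up to 5.56 and 4.92% in the WT and 6.98 and 8.33% in the KO, taking 3 counts as the limit, and covers counting error only. Of the same peaks 15 and 15 in the WT and 14 and 13 in the KO overlapped any of the 27381 stitched clusters. The dense clusters span 17.9 Mb and held 7.41% of the bases of regions held by both WT libraries. With so few MLL4 peaks a count of 0 is close to that share, and nothing is read from it. With 0 in all 4 libraries the genotypes could not be compared.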

How the data were processed

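Sample titles gave each library its group and replicate number. Per the submitters' processing notes the build was mm10 and the tools named, with no role given, included HOMER 4.10, SAMtools 1.5, MACS2, Bowtie2, deepTools and bedtools. Per the file headers the authors called narrow peaks in each library on its own with MACS2 2.1.0.20150731, at a q cutoff of 0.01, without a control library and with a local background of 10000 bp. The headers allow 2 duplicate fragments at a position for H3K4me1 and for WT replicate 1 of H3K4me3, and 1 for the other libraries. For each peak a deposited list holds its position, the pileup signal (not scaled to depth), −log10 of p and of q, and the fold enrichment ratio. The deposited −log10 q was used only to filter or rank peaks in alternatives, and the deposited pileup signal and fold ratio only to describe peaks within a list.

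Peaks on chromosomes 1 to 19 were merged (1 bp overlap), stitched at 12500 bp and ranked by the bases of the merged regions. A cluster counts as lower or higher where both KO values lie beyond both WT values. Genes, start sites, promoter windows and miRNAs came from RefSeq tables of GRCm38.p6. Where windows of a gene overlapped, 1 was used. Genotypes were compared by an exact permutation test, two-sided, over the 6 ways to assign 4 libraries (smallest p 0.333). It was used only for values where the choice was not made on 1 genotype's own values of that mark. The even choice still favours a ratio near 1. The clusters named were the 12 largest, the 8 lowest and 8 highest by KO over WT among those without overlap, the 5 with the most WT H3K4me3, those over or near listed genes and those at the limit of 500. A few of these are not reported here. Sequences shown were picked after their values were seen. The clusters and the 17 gene lists were chosen with earlier results of these data known. Scripts in Python 3.11.15 (numpy 2.4.6, pandas 2.3.3, scipy 1.17.1) were tested on simulated peaks. Alternatives changed the stitching, the number and ranking of clusters, peak thresholds, list length and the libraries used.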

Additional observations from a re-analysis of the deposited data

How the results depend on the processing

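Of 115 alternatives, 86 kept their result, 26 moved it and 3 turned its sign. For H3K4me3 and the evenly chosen clusters, kept means the same sign only, whatever the size. For the other H3K4me1 results it also means a close size, and for MLL4 the same value. The causes were not tested, apart from what the settings themselves fix. The log2 difference of H3K4me1 bases in the clusters (-0.34) was -0.5043 with bases counted within the shared regions only and 0.1855 with clusters chosen on the KO libraries, and -0.4643 to -0.2574 leaving out a library. The difference in share (-0.8562 percentage points) was -0.4593 with stitching at 5 kb, -1.199 at 25 kb, -0.4865 with 250 clusters, -1.549 with 1000, -1.397 within the regions only and 1.215 with KO-chosen clusters. It ran from -1.515 (without WT replicate 1, with -1.202 without WT replicate 2) to -0.7264 leaving out a library. Lower clusters (315) numbered 167 of 250, 613 of 1000 and 40 with KO-chosen clusters, and 339 to 433 leaving out a library. Higher clusters (19) numbered 9 at 5 kb, 9 of 250, 32 of 1000, 2 within the regions only, 11 without chromosomes 4, 10, 16 and 19, and 200 with KO-chosen clusters. They numbered 30 without WT replicate 1, 12 without WT replicate 2, 29 without KO replicate 1 and 65 without KO replicate 2. In the evenly chosen clusters the log2 difference (-0.06) was 0.002667 without WT replicate 1, the highest of the values leaving out a library, of which the lowest was -0.1506. MLL4 peaks in the clusters (mean KO minus WT, 0) were -2 at 25 kb and -0.5 with 1000 clusters, by span, by number of regions and with 50% of the region covered in each WT library. H3K4me3 in the clusters stayed lower in the KO under all alternatives run, from -5.06 (within the regions only) over -1.486 (equal list length) to -0.5848 (share of each library's own bases, an alternative added after seeing the data).

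Deviations from the genotype means of same-numbered libraries had a correlation of 0.0399 over the clusters and -0.0642 over the evenly chosen ones, so the numbers were not taken as pairs. With a replicate block the values were -0.3406, -0.8562 percentage points, -0.06264 (evenly chosen; exact sign-flip p = 0.5, the smallest that 2 pairs allow) and -2.106 (H3K4me3; exact p = 0.5), and 0 for MLL4. With 2 libraries per group no comparison can pass 0.05, and peak lists carry no level for bases under no peak, so a weak site and an empty one cannot be told apart.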

Other observations

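Clusters that ranked high in the KO were in part others than those of the WT. Of the 12 largest KO-chosen clusters, named here after their values were seen, 3 shared no base with a WT-chosen cluster. The cluster within Gse1 had 8183 and 6897 H3K4me1 bases in the KO and 6178 and 4422 in the WT, and that within Col13a1, a transmembrane collagen gene on chromosome 10, had 7315 and 7204 against 4176 and 4772. The cluster over Hsf2bp had 8537 and 7860 against 8093 and 7702 and overlapped between genotypes. KO-chosen clusters that did share a base with a WT-chosen one included those within Atp8b4, with 9217 and 7829 bases in the KO against 10854 and 9915 in the WT, and 75749 bp from Tnfaip3, with 9799 and 7512 against 8228 and 6252. KO libraries chose these clusters, so the values are a description.

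Among the evenly chosen clusters the largest was again that over Col6a2, with 12684 and 12598 bases in the WT and 12606 and 12190 in the KO. Palld, Dnajb6, Aff3, Usp6nl, Babam2 and Col4a2 also gave names to clusters among the 12 largest of that set. The cluster 191299 bp from Fn1 had 7922 and 6812 bases in the WT and 7993 and 7771 in the KO, which overlap. That within Col4a2, a basement membrane collagen gene, had 6695 and 6492 against 5870 and 7521, which overlap as well.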
